A study of Arabidopsis thaliana with 10 samples.

Results

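FLOWERING LOCUS C (FLC, AT5G10140) and its 5 closest relatives in Arabidopsis thaliana, MAF1 (AT1G77080, also called FLM), MAF2 (AT5G65050), MAF3 (AT5G65060), MAF4 (AT5G65070) and MAF5 (AT5G65080), were followed across the 10 arrays. The members were taken by their locus, through the accession that each array probe carries. These 6 genes had 16 probes, of 25433 genes and 34358 probes that could be tied to a locus, and all 6 genes and 16 probes entered the tests over 22353 genes.

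The study compared whole seedlings of 4 genotypes, grown on sucrose agar under short days and collected at an age of 7 or 15 days. LFYasEMF1/ult1-3, called the double line below, carries both alterations, LFYasEMF1 expresses antisense RNA of EMF1 from the promoter of the meristem gene LEAFY, ult1-3 is a mutant of ULT1, and WT is wild type. The double line, LFYasEMF1 and ult1-3 each had 1 array per age, and WT had 2 arrays per age. The ecotype and the number of plants behind an array are not given in the sources used here. The p-values reflect the spread among the arrays at hand, and that spread may be technical. In the fits of genotype and age, a mutant's arrays at 7 and 15 days served as its replicates. Their p-values therefore also take in any difference between the ages in a mutant's change. That fit had 5 residual degrees of freedom, and a fit with a mean for each genotype at each age had 2. In whole seedlings, fewer cells of a type and less RNA per cell cannot be told apart.

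FLC and the MAF proteins are MADS-domain transcription factors that delay flowering. FLC binds and represses the flowering genes FT and SOC1, often together with its partner SVP, and vernalization, the response to long cold, silences FLC through Polycomb proteins. FRI and its partners, the PAF1 complex and histone methylation factors activate FLC, and the genes of the autonomous pathway keep it low. EMF1 works with the Polycomb system as a repressor of flower genes, and ULT1 is a trithorax group protein known as an antagonist of Polycomb silencing. The MAF genes are regulated in part like FLC, and splicing of MAF1 and MAF2 gives several transcript forms.

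In the TAIR10.1 assembly, FLC lies on chromosome 5 at 3173382 to 3179448 and MAF1 lies on chromosome 1 at 28955483 to 28960234. The other 4 genes form a tandem cluster near the end of chromosome 5. MAF2 spans 25982254 to 25986435, MAF3 25987309 to 25991412, MAF4 25992193 to 25996202 and MAF5 25997504 to 26002619. The gaps between neighbours are 873, 780 and 1301 bp.

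Every value below is the log2 of a probe's signal over the 75th percentile of its array, so 0 is the level of that percentile. Each gene is read from its brightest probe, and levels of different genes are not set against each other. Changes over both ages come from limma with genotype and age as terms, and a gene was called changed at an adjusted p under 0.05 over all 22353 genes.

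Facts of the whole series bear on all of these genes. Between 71.7% and 80.1% of the spots on an array were well above background, and arrays correlated at 0.903 to 0.979. WT replicate 1 and LFYasEMF1 were hybridized on slide 1 at both ages. The double line, ult1-3 and WT replicate 2 were on slide 2 at 7 days and on slide 3 at 15 days. The morning clock gene LHY was at −6.00 to −2.27 on slide 1 and at 1.36 to 3.18 on slides 2 and 3. WT was the only genotype on slide 1 and on the other slides. It was at −6.00 and −2.66 on slide 1 and at 3.18 and 2.73 on slides 2 and 3. A slide and a shared time of collection of its samples cannot be told apart here. ULT1 transcript stood at −6.46 and −5.81 in the double line, at −2.33 and −2.76 in ult1-3 and between −0.95 and −0.16 in WT. The summed linear signal of 6 floral organ genes was 0.871 to 2.88 in the double line, 5.51 to 9.47 in LFYasEMF1, 0.0849 to 0.335 in ult1-3 and 0.0535 to 0.147 in WT. All 6 were called higher than WT in both the double line and LFYasEMF1, so flower identity transcripts moved with each of those comparisons; their part in the values of FLC and the MAF genes was not tested. The 3 shoot meristem markers were STM, CLV3 and WUS. Their summed signal was 0.313 to 0.332 in the double line and 0.291 to 0.392 in LFYasEMF1. It was 0.253 to 0.255 in ult1-3 and 0.181 to 0.216 in WT, so all mutant sums lay above all WT sums. The single markers did not all move that way: in LFYasEMF1 over WT, 1 of the 3 was higher and 2 were lower. In the double line and in ult1-3, each over WT, all 3 were higher. None of the 3 was called in a comparison with WT, WUS was not well above background in the 3 mutant genotypes and CLV3 was not in LFYasEMF1; their part in the values of FLC and the MAF genes was not tested. Green tissue markers and all 5 root markers were detected in each genotype. Each of the 3 seed markers was well above background on at least 1 array of the double line and on no array of the other genotypes. Their summed signal was 0.00478 and 0.286 on the 2 double-line arrays, against at most 0.0165 elsewhere. The higher signal thus rests on 1 array.

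FLC, the central repressor, was read by 3 probes, all well above background on all 10 arrays. In the double line FLC was at 0.01 at 7 days and 0.95 at 15 days. In LFYasEMF1 it was at 1.27 at 7 days and 0.76 at 15 days. In ult1-3 it was at −0.33 and −0.41, and in WT at −1.10 and −1.02 at 7 days and −0.97 and −2.39 at 15 days. All 6 mutant arrays lay above all 4 WT arrays, and the WT array that was low, replicate 2 at 15 days, lay apart from the other 3. The share of all genes with every mutant array above every WT array was not counted.

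The order of the FLC means was LFYasEMF1 (1.02 ± 0.36, SD, 2 arrays), the double line (0.48 ± 0.66), ult1-3 (−0.37 ± 0.06) and WT (−1.37 ± 0.68, 4 arrays). No 2 neighbours in this order differed past the test. The double line minus LFYasEMF1 was −0.53 ± 0.54 (SE, adjusted p = 0.618), the double line minus ult1-3 was 0.85 ± 0.54 (adjusted p = 1.00), and ult1-3 minus WT was 1.00 ± 0.47 (adjusted p = 0.934).

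**Figure D1:**
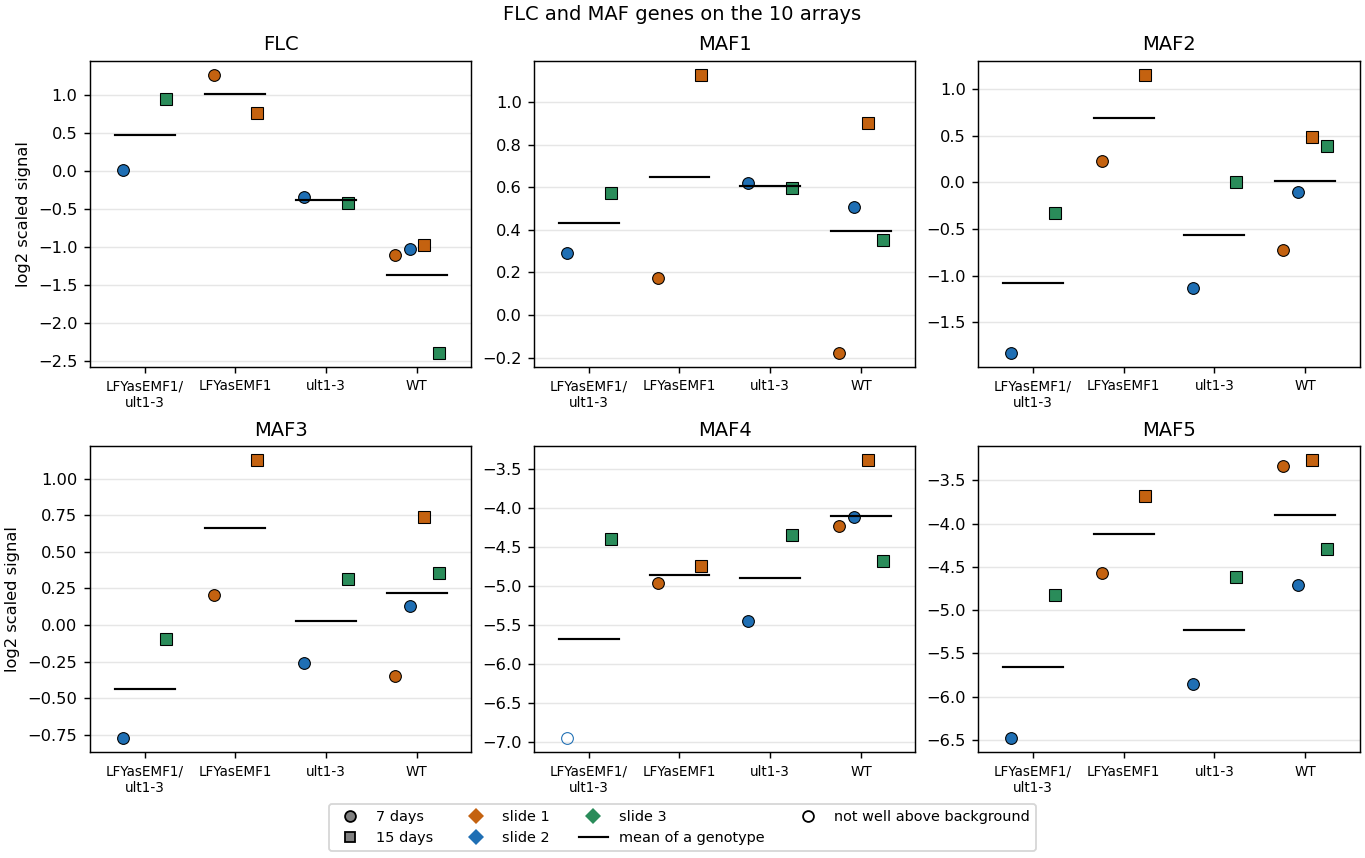
The log2 of the scaled signal of FLC and MAF1 to MAF5 on each of the 10 arrays, by genotype, with its own vertical axis for each gene. Circles are 7 days and squares 15 days, the colour gives the slide, bars are genotype means and an open symbol is a value not well above background. The 6 mutant arrays lie above the 4 WT arrays for FLC.

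The first comparison, LFYasEMF1 against WT, asks what antisense EMF1 does by itself. FLC was 2.39 ± 0.47 higher on the log2 scale, 5.23-fold, and just missed the threshold (adjusted p = 0.0579), while 1.68% of all genes passed it in either direction. None of the 6 genes was called. At an unadjusted p under 0.05, FLC and MAF2 were higher, 2 of 6 genes where 6.35% of all genes were higher. FLC was also the only one of the 6 whose LFYasEMF1 arrays all lay above WT, as 8.32% of all genes did. The median change of the 6 genes was 0.35, against 0.00121 over all genes. Without WT replicate 2 at 15 days, the FLC value was 2.03 (adjusted p = 0.0550). Adding slide to the model gave 2.05 (adjusted p = 0.155).

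The 3 FLC probes gave between 2.32 and 2.39 in that comparison. Against the WT array of the same slide and age, FLC in LFYasEMF1 was 2.37 higher at 7 days and 1.73 higher at 15 days. The difference was therefore seen on both arrays within slide 1 as well.

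Among the tandem genes in LFYasEMF1, those at the MAF2 end and those at the MAF5 end had opposite signs. MAF2, which delays flowering in plants given short cold, was at 0.24 and 1.15 in LFYasEMF1 at 7 and 15 days, against −0.72 and −0.10 in WT at 7 days and 0.48 and 0.39 at 15 days. Its arrays overlapped WT over both ages, but at each age the LFYasEMF1 array lay above both WT arrays. The share of all genes with such an order within each age was not counted, here or below. The fitted difference was 0.68 ± 0.27 (adjusted p = 0.364). MAF3, a close relative beside it, was at 0.20 and 1.13 in LFYasEMF1, against −0.35 and 0.13 in WT at 7 days and 0.74 and 0.36 at 15 days. It showed the same order within each age, with a difference of 0.45 ± 0.24 (adjusted p = 0.543).

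MAF4, a repressor that also responds to cold, was at −4.97 and −4.75 in LFYasEMF1, against −4.24 and −4.12 in WT at 7 days and −3.39 and −4.68 at 15 days. Both LFYasEMF1 arrays lay below all 4 WT arrays, as 7.8% of all genes did, and the difference was −0.75 ± 0.57 (adjusted p = 0.675), or −0.37 without the 15-day LFYasEMF1 array and −1.13 without either the 7-day one or WT replicate 2 at 15 days. MAF5, whose transcript rises in vernalized plants, was at −4.57 and −3.68 in LFYasEMF1, against −3.34 and −4.71 in WT at 7 days and −3.27 and −4.29 at 15 days. Its arrays overlapped, with a difference of −0.22 ± 0.50 (adjusted p = 0.898). MAF5 lost its sign without WT replicate 1 at 7 days (0.16).

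MAF1, the relative of FLC that acts with SVP in the response to ambient temperature, was at 0.17 and 1.13 in LFYasEMF1, against −0.18 and 0.50 in WT at 7 days and 0.90 and 0.35 at 15 days. These arrays overlapped and the difference was 0.25 ± 0.31 (adjusted p = 0.804). Its 4 probes ran from −0.64 to 0.46 in this comparison. The probe with the negative value, A_84_P540816, was the dimmest, with levels between −6.31 and −5.11.

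ult1-3 was set against WT to ask what loss of ULT1 does alone. None of the 6 genes was called, and 0.0626% of all genes were. FLC was 1.00 ± 0.47 higher (adjusted p = 0.934), or 0.64 without WT replicate 2 at 15 days, and it was the only one of the 6 with both ult1-3 arrays above all WT arrays, as 5.38% of all genes were. Set against the WT array of its own slide and age, FLC was 0.69 higher at 7 days and 1.98 higher at 15 days. The second of these uses the low WT array.

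The MAF2 to MAF5 genes all had negative fitted changes in ult1-3. MAF2 was at −1.13 at 7 days and 0.00037 at 15 days in ult1-3, below both WT arrays at each age, with a difference of −0.58 ± 0.27 (adjusted p = 0.934). MAF3 was at −0.26 and 0.32 in ult1-3 and differed by −0.19 ± 0.24 (adjusted p = 0.938). MAF4 was at −5.45 and −4.34 in ult1-3 and differed by −0.79 ± 0.57 (adjusted p = 0.934). MAF5 was at −5.86 and −4.61 in ult1-3, below both WT arrays at each age, and was the only member with an unadjusted p under 0.05 (−1.33 ± 0.50, adjusted p = 0.934), where 2.33% of all genes were lower at that level. MAF1 was at 0.62 and 0.59 in ult1-3 and differed by 0.21 ± 0.31 (adjusted p = 0.947).

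In the double line against WT, FLC and the tandem genes stood on opposite sides. FLC was 1.85 ± 0.47 higher, 3.61-fold (adjusted p = 0.157), and its 3 probes gave between 1.85 and 1.92. Without the 15-day double-line array the difference was 1.16, and without the 7-day one it was 2.55. Both its double-line arrays lay above all WT arrays, as 9.14% of all genes did. No member was called, and 0.81% of all genes were. At an unadjusted p under 0.05, 1 of 6 was higher (FLC) and 4 of 6 were lower (MAF2, MAF3, MAF4 and MAF5), where 6.96% of all genes were higher and 8.91% lower. The median of the 6 genes was −0.87, against −0.00373 over all genes.

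MAF2 was at −1.83 at 7 days and −0.33 at 15 days in the double line, below both WT arrays of each age, with a difference of −1.09 ± 0.27 (adjusted p = 0.148). MAF3 was at −0.77 and −0.10 in the double line, again below both WT arrays at each age, with a difference of −0.65 ± 0.24 (adjusted p = 0.265). These 2 genes showed the same order at both ages.

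MAF4 was at −6.96 and −4.41 in the double line, and the first of these was the only value of the 6 genes that was not well above background. Its difference was −1.58 ± 0.57 (adjusted p = 0.259) and shrank to −0.50 without that array. MAF5 was at −6.48 and −4.82 in the double line, below all 4 WT arrays, as 6.63% of all genes were. Its difference was −1.75 ± 0.50 (adjusted p = 0.196), −1.25 without the 7-day array of the double line, −1.15 with slide in the model and −1.002 with normexp background correction. MAF1 was at 0.29 and 0.57 in the double line and differed from WT by 0.04 ± 0.31 (adjusted p = 0.965).

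**Figure D2:**
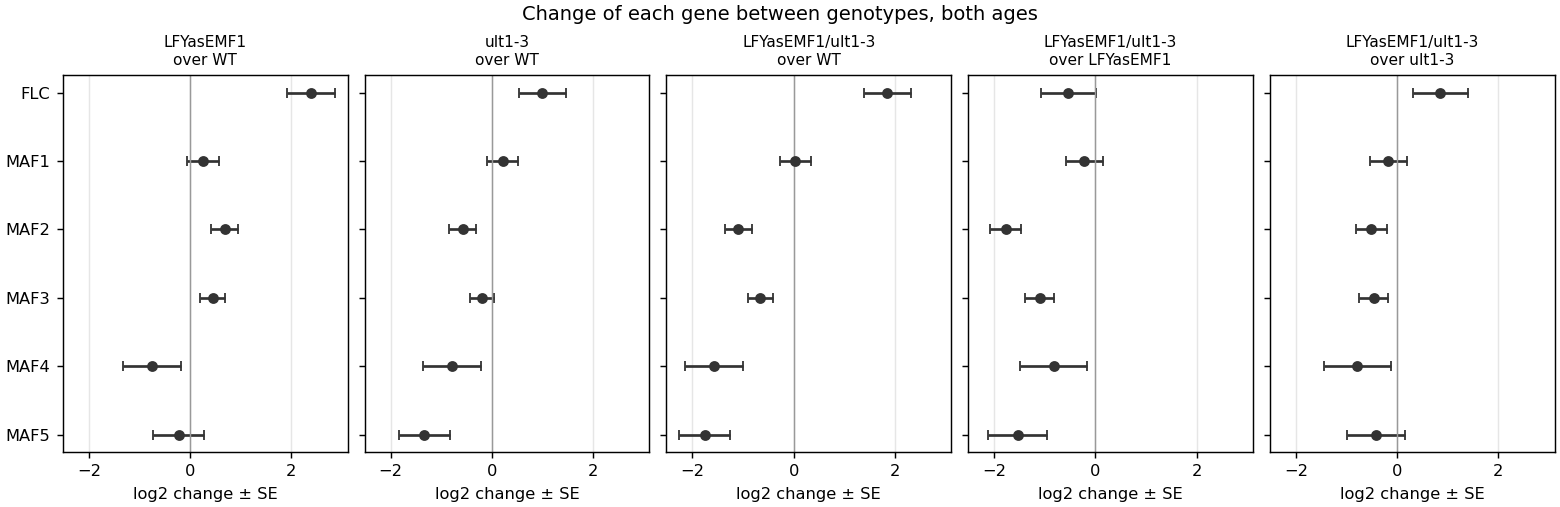
Fitted log2 change of each gene with its SE, in 5 comparisons over both ages (2 arrays for each mutant, 4 for WT). FLC lies to the right of 0 in each comparison with WT, at 1.00 to 2.39. MAF4 and MAF5 lie left of 0 in all 5 comparisons, and MAF2 and MAF3 in all except LFYasEMF1 over WT.

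Matching each mutant array with the WT array of its own slide and age gave 6 differences per gene. FLC was higher in all 6, by 0.69 to 3.34. MAF5 was lower in all 6, by −1.77 to −0.33. MAF2 and MAF3 were higher in LFYasEMF1 (0.96 and 0.67 for MAF2, 0.55 and 0.39 for MAF3, at 7 and 15 days). They were lower in the double line (−1.72 and −0.72 for MAF2, −0.90 and −0.45 for MAF3) and in ult1-3 (−1.03 and −0.39 for MAF2, −0.39 and −0.04 for MAF3).

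MAF4 was lower on both LFYasEMF1 arrays, by −0.73 and −1.36. In the double line and in ult1-3 it was lower at 7 days (−2.84 and −1.34) and slightly higher at 15 days (0.27 and 0.34). MAF1 stayed between −0.22 and 0.35 in all 6 differences. For scale, the WT arrays of 1 age differed between their replicates by 0.08 for FLC at 7 days but by 1.42 at 15 days, so the FLC differences at 15 days depend on which WT array is used. The 6 differences share 4 WT arrays and are not independent. The share of all genes with the same sign in all 6 was not counted.

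**Figure D3:**
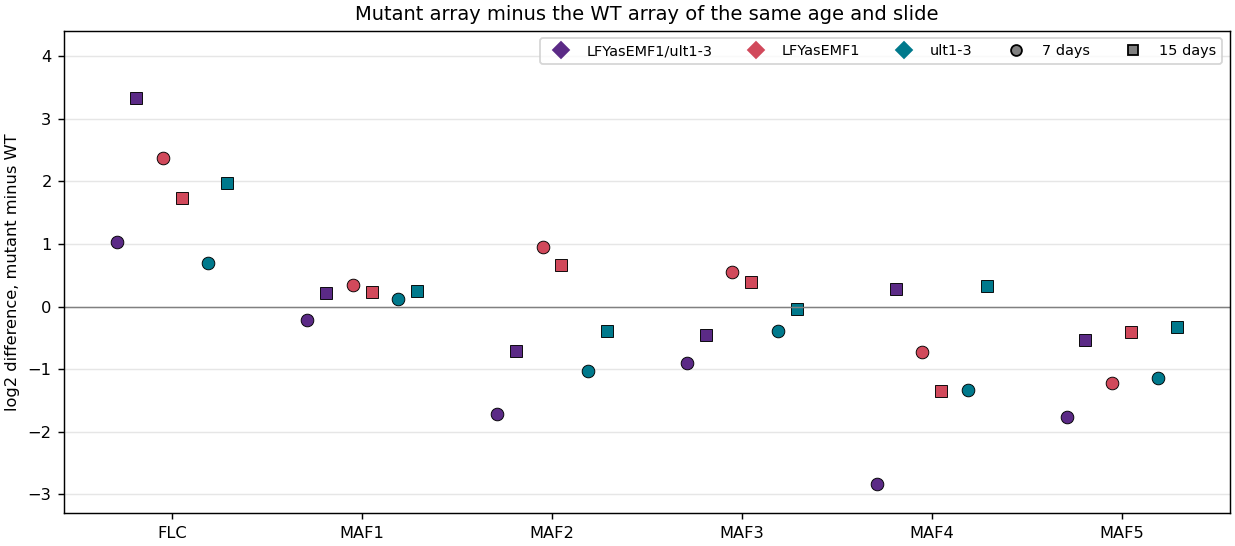
Each point is 1 mutant array minus the WT array of the same slide and age, in log2 units, for each gene (circles 7 days, squares 15 days, colours for the 3 mutant genotypes). All 6 FLC points lie above 0 and all 6 MAF5 points below it, while MAF2 and MAF3 lie above 0 only in LFYasEMF1.

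The double line was set against LFYasEMF1 to ask what ult1-3 does in the presence of the transgene. ULT1 transcript was lower in the double line (−6.46 and −5.81) than in ult1-3 (−2.33 and −2.76). An effect of ult1-3 as seen alone and one of that further difference cannot be told apart in this comparison. None of the 6 genes was called, where 0.89% of all genes were. MAF2 came closest, at −1.77 ± 0.31, 3.41-fold lower (adjusted p = 0.0517). MAF3 differed by −1.10 ± 0.28 (adjusted p = 0.113) and MAF5 by −1.53 ± 0.58 (adjusted p = 0.218), or by −0.33 with slide in the model. These 3 genes had an unadjusted p under 0.05, where 10.9% of all genes were lower at that level, and the same 3 had both double-line arrays below both LFYasEMF1 arrays, where 21.2% of all genes were.

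MAF4 differed by −0.82 ± 0.66, FLC by −0.53 ± 0.54 and MAF1 by −0.22 ± 0.36 (adjusted p = 0.524, 0.618 and 0.773). The signs of these 3 were not stable. Without the 7-day double-line array, on which MAF4 was not well above background, MAF4 turned to 0.25 and FLC to 0.16. Adding slide to the model turned FLC to 0.14, and MAF1 turned to 0.11 without the 15-day LFYasEMF1 array. The double line and LFYasEMF1 shared no slide, so this comparison has no value within a slide.

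The 4 MAF2 probes gave −1.97 to −1.70 in the double line over LFYasEMF1. When each probe was its own feature, adjusted over 30776 probes, A_84_P607453 fell by 1.97 ± 0.32 (adjusted p = 0.0420), while the other 3 MAF2 probes had adjusted p of 0.0535 to 0.0815. The threshold therefore runs between probes that gave nearly equal changes. MAF2 also passed at the gene level under 6 of 23 alternative settings, with adjusted p from 0.0377 to 0.346 over all of them.

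The double line was set against ult1-3 to ask what the transgene does where ULT1 is mutated. ULT1 transcript itself was lower in the double line (−6.46 and −5.81) than in ult1-3 (−2.33 and −2.76). The transgene and that difference cannot be told apart here or in the next comparison. No member had an unadjusted p under 0.05 and none was called, where 3.53% and 0.385% of all genes were. FLC was 0.85 ± 0.54 higher, or 0.16 without the 15-day and 1.55 without the 7-day double-line array, and both double-line arrays lay above both ult1-3 arrays, as 11.5% of all genes did. MAF1 was the member with both double-line arrays lower, as 8.14% of all genes were, at −0.18 ± 0.36. The other differences lay between −0.78 (MAF4) and −0.42 (MAF5), and all 6 genes had an adjusted p of 1.00. Without the 7-day double-line array, MAF4 turned to 0.29 and MAF5 to 0.08.

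The effect of the transgene in ult1-3 minus its effect in WT passed the test for none of the 6 genes, where 0.139% of all genes did. MAF2 had −1.19 ± 0.41 (adjusted p = 0.908), from a transgene difference of −0.51 in ult1-3 and 0.68 in WT. MAF3 had −0.91 ± 0.37 (adjusted p = 0.998), from −0.46 and 0.45. FLC had −1.53 ± 0.72 (adjusted p = 0.998), from 0.85 and 2.39. MAF1 had −0.43 ± 0.48, with probes from −0.73 to 0.59. MAF4 had −0.03 ± 0.88 and MAF5 −0.20 ± 0.77, and their signs changed in 8 and 7 of 23 alternative settings, so no direction can be given for either. MAF2 and MAF3 were the 2 of 6 with an unadjusted p under 0.05, where 2.39% of all genes were lower at that level.

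Probes of one gene were compared to see whether transcript forms moved apart. FLC probes followed each other closely, at 2.32 to 2.39 in LFYasEMF1, 1.00 to 1.06 in ult1-3 and 1.85 to 1.92 in the double line, each over WT. MAF2 probes had one sign in each of the 5 comparisons between genotypes, and so did the 2 MAF3 probes and the 2 MAF5 probes. MAF1 probes differed in sign in 4 of these 5 comparisons, all except the double line over ult1-3. In the double line over LFYasEMF1, probe A_84_P540816 was at 0.44 and the other 3 lay between −0.69 and −0.22. Of 11131 probe pairs tested for unequal change, no pair of these 6 genes had an adjusted p under 0.05. The lowest were 0.167 for MAF3 and 0.248 for MAF1, both in the double line over LFYasEMF1.

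**Figure D4:**
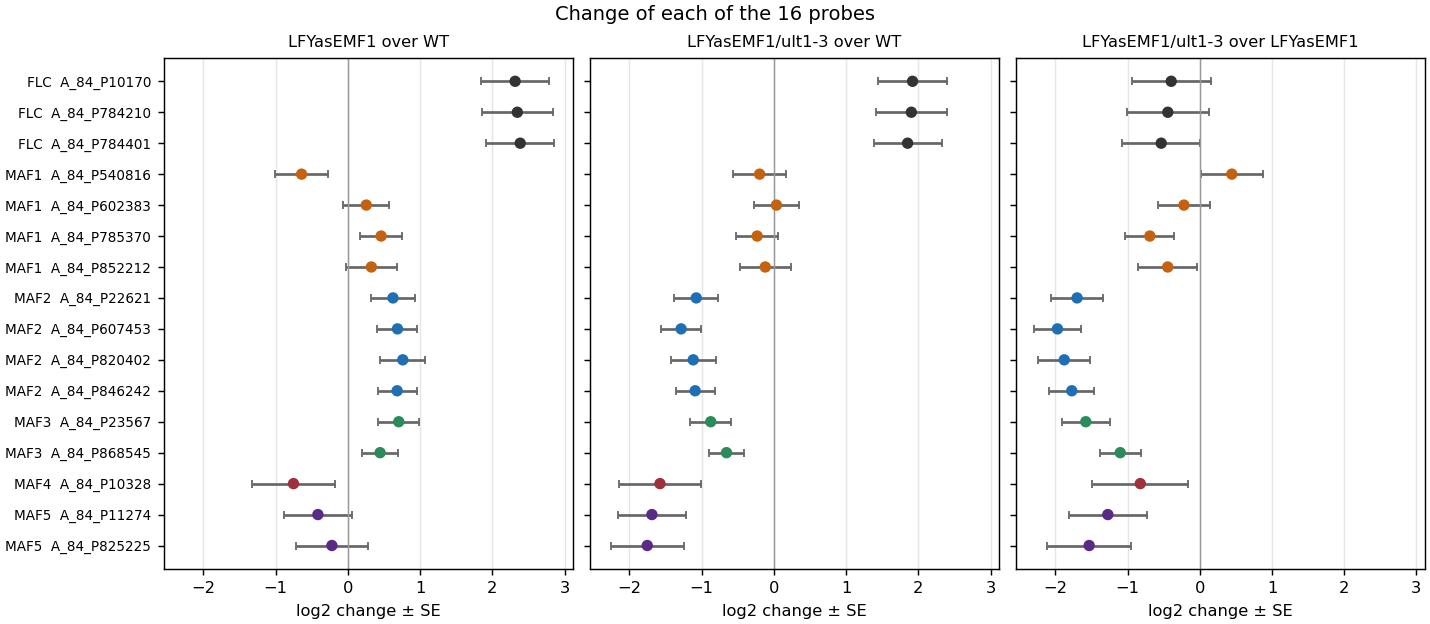
Fitted log2 change with SE of each of the 16 probes, in LFYasEMF1 over WT, in the double line over WT and in the double line over LFYasEMF1. Probes of FLC, MAF2, MAF3 and MAF5 share a sign within a gene in each panel, though the 2 MAF3 probes are at −1.58 and −1.10 in the third. The 4 MAF1 probes lie on both sides of 0 in the first panel (−0.64 to 0.46).

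Age was examined next. In WT no gene of 22353 was called between 15 and 7 days (0% called, 813 genes at an unadjusted p under 0.05), with 2 arrays per age. That count was not stable. With slide 1 against slides 2 and 3 as a term, 103 genes were called higher and 132 lower, without WT replicate 2 at 7 days 12 and 26 were, and with the age term of all 10 arrays 660 and 1196 were. FLC was 0.62 ± 0.60 lower at 15 days, and that sign rested on 1 array, since it was 0.09 without WT replicate 2 at 15 days. MAF2 was 0.85 ± 0.48 higher, MAF3 0.66 ± 0.48, MAF1 0.46 ± 0.51, MAF5 0.25 ± 0.66 and MAF4 0.14 ± 0.58, all with an adjusted p of 1.00.

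MAF2 was higher at 15 than at 7 days in each genotype, by 1.50 in the double line, 0.92 in LFYasEMF1, 1.13 in ult1-3 and 1.21 and 0.49 in WT replicates 1 and 2. MAF3 moved alike, by 0.68, 0.92, 0.58, 1.09 and 0.23 in the same order. With the age term of all 10 arrays, MAF2 rose by 1.05 (adjusted p = 0.0230), while MAF3 had an adjusted p of 0.0531. FLC had no common direction, at 0.94 in the double line, −0.51 in LFYasEMF1, −0.08 in ult1-3 and 0.13 and −1.37 in WT.

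MAF5 was higher at 15 days in all 5 pairs, by 0.07 to 1.66, and MAF4 in 4 of 5, by −0.56 to 2.55. The share of all genes higher in as many pairs was not counted, here or for MAF2 and MAF3 above. Whether a mutant effect differs between ages could hardly be tested, since each mutant had 1 array per age and the spread came from the WT pairs alone, with 2 residual degrees of freedom. In that fit of the 8 group means none of 22353 genes was called in any mutant genotype (0%; 474 genes for the double line, 372 for LFYasEMF1 and 173 for ult1-3 at an unadjusted p under 0.05), so the absence of calls among the members says nothing about whether their effects differed. The member with the largest such value was MAF4 in the double line (2.41 ± 1.00, adjusted p = 1.00), which rests on the 7-day value at background.

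Across the 10 arrays, MAF2 and MAF3 varied together (Pearson r = 0.959, Spearman rho = 0.976). MAF4 and MAF5 followed, at r = 0.833 but rho = 0.588, over arrays that include the MAF4 value not well above background. MAF2 and MAF5 had r = 0.746 (rho = 0.721), and MAF1 and MAF3 had r = 0.707 (rho = 0.600). Ranked by r among all genes tested, MAF3 was number 53 for MAF2 and MAF5 was number 122 for MAF4. By the same ranking, MAF5 was number 2355 for MAF2 and MAF3 was number 649 for MAF1. FLC had r between −0.27 and 0.20 with the 5 others. These arrays share slides and genotypes, so the coefficients are descriptions over 10 points. After slide means were removed, MAF2 and MAF3 stayed at 0.950 and FLC and MAF5 stood at −0.69. MAF4 and MAF5 were then at 0.857, MAF1 and MAF3 at 0.842, and MAF2 and MAF5 fell to 0.482.

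The genes most like FLC over the 10 arrays were AT5G65360 (r = 0.954), AT4G31630 (0.931), NRPB9A (0.926), a subunit of RNA polymerase II, AT3G46080 (0.920) and AT3G03320 (0.917). With slide means removed, these 5 genes had r between 0.924 and 0.958. Only 14 genes had r above 0.9 with FLC, against 473 for MAF2, 142 for MAF3, 102 for MAF5, 13 for MAF1 and 9 for MAF4. MAF2 was most like AT2G35410, AT5G14370 and CHR24 (0.986, 0.985 and 0.985). MAF2 was itself the third of the 3 genes most like MAF3, after AT3G52570 and AT1G77765 (0.968 and 0.961). MAF1 was most like AT3G59490, NAC089 and AT5G25470 (0.971, 0.942 and 0.940), MAF4 most like AT5G18710, AT5G14090 and MYB95 (0.960, 0.933 and 0.924), and MAF5 most like AT3G11850, AT4G38560 and AT4G27870 (0.985, 0.964 and 0.964). With slide means removed, these 15 coefficients lay between 0.880 and 0.985.

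Genes beside these loci were examined for shared change, with 3 on each side. Those tested numbered 6 at FLC, 4 at MAF1 and 5 at the tandem cluster, and none was called in any of the 5 comparisons between genotypes. The FLC neighbours lay between −0.84 and 0.89 in LFYasEMF1 over WT, all under the 2.39 of FLC. The 0.89 came from AT5G10120, a dim gene with levels from −9.56 to −4.41. Beside MAF5, BST1 had 1.83 in that comparison (adjusted p = 0.0758), where MAF5 had −0.22.

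The regulators of FLC were taken as lists. Of 21 activators tested, 1 was called lower in LFYasEMF1 over WT and 1 in the double line over WT, and none was called higher, where 0.752% and 0.47% of all genes were called lower. Both calls were FRI (AT4G00650), which codes for the scaffold protein that gives high FLC in winter-annual accessions and is impaired in many laboratory strains. FRI was at −4.02 and −4.33 in the double line, −4.62 and −4.72 in LFYasEMF1 and −3.13 and −2.45 in ult1-3 at 7 and 15 days. In WT it was at −2.44 and −2.41 at 7 days and −2.59 and −2.40 at 15 days. The double line and LFYasEMF1 lay below every WT and ult1-3 array. The share of all genes with such a separation was not counted.

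FRI fell by 2.21 ± 0.26 in LFYasEMF1, 4.62-fold (adjusted p = 0.00488), and by 1.72 ± 0.26 in the double line, 3.29-fold (adjusted p = 0.0275). Its 2 probes gave −2.33 and −2.21 in LFYasEMF1, and −2.004 and −1.72 in the double line. The FRI call in LFYasEMF1 held in 21 of 24 alternative settings and ended in the fit of the 8 group means (adjusted p = 0.103) and without either LFYasEMF1 array (0.0545 without 7 days, 0.0848 without 15 days). The call in the double line held in 9 of 24. FRI was therefore lower where FLC was measured as higher, in both genotypes with the transgene. In ult1-3, FRI differed from WT by −0.33 ± 0.26 (adjusted p = 0.934).

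The other activators gave no call. In LFYasEMF1 over WT, 16 of the 21 activators had negative values, with a median of −0.12 against 0.00121 over all genes. FRL2, a relative of the FRI partner FRL1, had −0.85 ± 0.23 (adjusted p = 0.162). In the double line over WT, 15 of 21 were negative, with a median of −0.29 against −0.00373. The PAF1 complex genes VIP4 and VIP6 had −1.25 ± 0.50 and −1.15 ± 0.35 there (adjusted p = 0.290 and 0.213), and HUB2, which ubiquitinates histone H2B, had −1.12 ± 0.34 (adjusted p = 0.209).

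None of the 11 repressors of FLC in the autonomous pathway was called in any comparison. The histone demethylase relatives LDL1 and LDL2 had −0.62 ± 0.23 and −0.66 ± 0.24 in LFYasEMF1 over WT (adjusted p = 0.336 and 0.319). FCA, an RNA-binding protein, had −0.70 ± 0.28 in the double line over WT (adjusted p = 0.291). Of the 13 tested genes of vernalization and Polycomb repression, none was called either, and their medians were −0.16 in LFYasEMF1 and −0.20 in the double line. VAL1, which binds the silencing element of FLC, had −0.78 ± 0.26 in the double line over WT (adjusted p = 0.240).

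Targets and partners of FLC had no call among the 8 tested. FT, the mobile flowering signal, was well above background on 4 of 10 arrays, all at 15 days. At 15 days FT was at −3.92 in the double line, −0.33 in LFYasEMF1 and −4.90 and −4.83 in WT, while in ult1-3 it was not well above background at either age. The LFYasEMF1 array with the highest FT thus also had FLC at 0.76, above every WT array. In WT, FT was at least 6.59-fold higher at 15 than at 7 days (adjusted p = 0.626).

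SOC1, the other direct target, was at −3.44 and −0.95 in the double line at 7 and 15 days, −3.24 and 0.69 in LFYasEMF1 and −2.47 and −1.80 in ult1-3. In WT it was at −2.75 and −1.59 at 7 days and −0.22 and −0.31 at 15 days. At 7 days both lines with the transgene lay below both WT arrays, and at 15 days LFYasEMF1 lay above them and the double line below. SVP, the partner of FLC, lay between 0.79 and 1.95 on all arrays. FD, the partner of FT, differed by −1.42 ± 0.36 in the double line over WT (adjusted p = 0.156) and by −1.80 ± 0.41 in the double line over LFYasEMF1 (adjusted p = 0.0938).

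AGL24 and TEM1, an activator and a repressor of flowering, had 1.63 ± 0.42 and 1.12 ± 0.29 in LFYasEMF1 over WT (adjusted p = 0.135 and 0.142). All 8 targets and partners had positive values for WT at 15 over 7 days, with a median of 0.60 against −0.0137 over all genes. In the double line over LFYasEMF1 all 8 were negative, with a median of −0.93 against −0.00787. EMF1 itself, on a probe whose strand relative to the antisense transgene is not given, was at −3.10 and −1.62 in the double line, −1.71 and −0.49 in LFYasEMF1 and between −3.07 and −1.29 in WT.

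**Figure D5:**
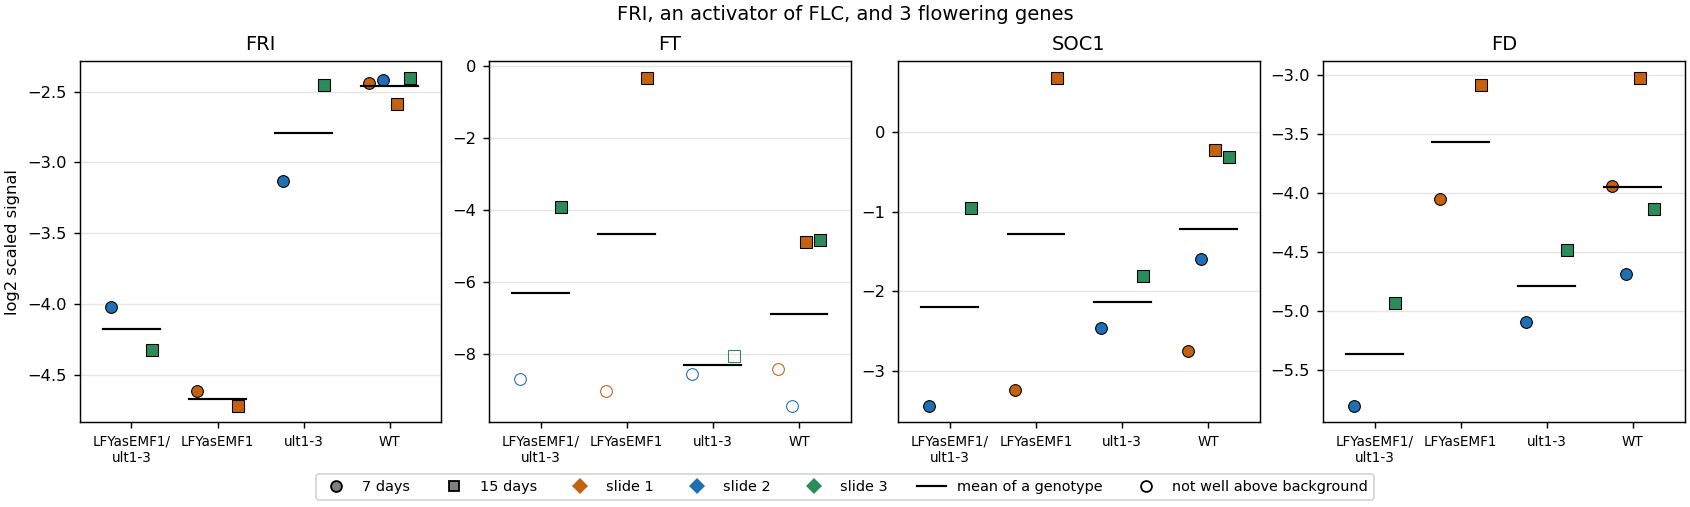
The log2 of the scaled signal of FRI, FT, SOC1 and FD on each array, by genotype (circles 7 days, squares 15 days, colours for slides, bars for means, open symbols not well above background). FRI lies between −4.72 and −4.02 on the 4 arrays of the double line and LFYasEMF1 and between −3.13 and −2.40 on the 6 others.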

How the data were processed

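Each of the 10 files came from 1 single-colour Agilent array, which the authors read in Agilent Feature Extraction 10.7.1.1 according to the submitters' processing notes. Per the file headers, the deposited processed signal is a linear intensity, background-subtracted and not normalized between arrays; the values of the deposited series table are intensity values as well, with a scaling that is not stated. The log2 of each signal over its array's 75th percentile was used. Probes well above background on at least 1 array were kept, and each gene was its probe with the highest mean. Loci came from RefSeq (TAIR10.1). Members, lists and tests were chosen with earlier results of these data known.

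limma 3.58.1 in R 4.3.3 fitted genotype and age to 10 arrays (5 residual degrees of freedom), age to the 4 WT arrays (2), or the 8 group means (2), with Benjamini-Hochberg adjustment over 22353 genes. On simulated data for LFYasEMF1 over WT (22353 genes), 37 of 100 changes of log2 2 and 75 of 100 of log2 4 were recovered. The simulated noise took each gene's SD over the 4 WT arrays, with ages and slides pooled. It was drawn separately for each array, with no shift shared by the arrays of a slide. Named genes were the 6 members, list genes called in a comparison, FT, SOC1, SVP and FD, the neighbouring genes and the genes most like each member. Other list genes were named after their values were seen, and FRI was followed through the alternatives for the same reason. Of 57 list entries 53 were used: FLX was dropped because its name did not match its locus, and SDG25, CLF and TSF did not pass the filter. No sequence is shown. The number of arrays limits the precision.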

Additional observations from a re-analysis of the deposited data

How the results depend on the processing

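The 60 member values were recomputed 1206 times, and 24 of the 60 changed sign in at least 1 setting, in 50 recomputed values, none of which was called. FLC in LFYasEMF1 over WT was higher in all 24 settings (2.03 to 2.59, adjusted p 0.0399 to 0.349). It passed the test, making 1 member called where the main count was 0, with normexp on median signals (2.35), a floor under dim signals (2.39) and an intensity trend with robust variances (2.39). MAF2 in the double line over LFYasEMF1 was lower in all 23 settings (−2.05 to −1.49) and made the count 1 with quantile normalization, the authors' value table, normexp, a filter of 5 arrays and an intensity trend; leaving out single arrays gave counts of 0 to 1 (1 without WT replicate 2 at 7 days, adjusted p = 0.0424). With the age term of all 10 arrays, 1 member (MAF2) was called for age in place of 0. The cause of these changes was not tested.

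FRI in the double line over WT lost its call in 15 of 24 settings, among them quantile normalization (−1.44, adjusted p = 0.0622), slide as a term (−1.77, 0.0558) and 8 of the 10 settings that left out an array. WT replicate numbers mark no stated pairing, and with 2 pairs the check (correlation of deviations 0.355) cannot establish one. With the replicate block, which in WT is the same fit as slide 1 against slides 2 and 3, 0 members were called for age in WT, as without it, but 103 genes were called higher and 132 lower where 0 were without it. The added setting of slide 1 against slides 2 and 3 was chosen after seeing the data. Normexp used median signals because mean signals were not in the tables used here. The 2-array groups, each on 1 or 2 slides, limit the precision. A change of log2 2 was often missed in simulated data. The noise there pooled the WT ages and slides and had no shift shared by the arrays of a slide. The share missed there need not hold for the real fit.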
